A study of Homo sapiens with 4 samples.

Results

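MALAT1 and NEAT1, long non-coding RNAs that stay in the nucleus, were examined in SH-SY5Y cells, a human neuroblastoma line, after silencing of TSPAN8. These 2 genes are read by 21 of the 54613 probe sets tested, 12 for MALAT1 and 9 for NEAT1. The array names 19775 genes through single-gene probe sets, MALAT1 among them, whereas every NEAT1 set is listed with a second gene. The genes were chosen by their knockdown minus control values in an earlier analysis of the same arrays, so those values are given as a description with no test. Probe sets were then taken by the platform's gene symbol alone, with no threshold on any value. The groups were TSPAN8 knockdown (2 arrays), cells given small interfering RNA against TSPAN8 with the Accell delivery system, and transfection control (2 arrays). Both groups were the same line in medium with 10% serum, collected after 72 h, with 100 ng of RNA labelled for each array. What the control cells received, and whether the arrays of a group came from separate cultures, the labels do not say. The spread between arrays may therefore be technical. The line is a single clonal line, and each array averages its whole culture, so that fewer cells of a kind and less RNA per cell cannot be told apart.

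MALAT1 is among the most abundant nuclear RNAs and collects in nuclear speckles, the compartments that hold pre-mRNA splicing factors. Its end is not made by cleavage and polyadenylation: RNase P cuts the transcript before a tRNA-like element, and a triple helix protects the new end. NEAT1 is the RNA scaffold of paraspeckles, nuclear bodies built on its long isoform with the proteins NONO, SFPQ and others. A short NEAT1 isoform shares the same start and is polyadenylated. In the RefSeq annotation of GRCh38.p14 both genes lie on chromosome 11 and are close neighbours, with 4 annotated genes and 0 protein-coding genes starting between them. One of those 4, MIR612, lies inside NEAT1, and the antisense gene TALAM1 overlaps MALAT1.

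The RefSeq table of start regions holds 2 windows for MALAT1 and no window for NEAT1. Both MALAT1 windows are printed, since its starts are unlike each other. Each window spans 250 bases before to 50 after a start on the plus strand of GRCh38.p14, at chr11:65497488-65497787 for the first and chr11:65498795-65499094 for the second. Capitals mark matches to any of 4 motifs, searched on both strands with any overlap kept: TATAAA (the TATA box), CCAAT (the CCAAT box), GGGCGG (the GC box) and TGACGT (the core of the cyclic AMP response element).
MALAT1 first start: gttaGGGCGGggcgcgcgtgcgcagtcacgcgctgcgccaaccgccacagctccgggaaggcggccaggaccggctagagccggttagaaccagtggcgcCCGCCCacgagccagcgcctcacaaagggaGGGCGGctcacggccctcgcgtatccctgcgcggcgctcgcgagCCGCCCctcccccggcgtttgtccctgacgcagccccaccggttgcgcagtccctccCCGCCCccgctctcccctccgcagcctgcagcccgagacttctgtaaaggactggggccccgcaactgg
MALAT1 second start: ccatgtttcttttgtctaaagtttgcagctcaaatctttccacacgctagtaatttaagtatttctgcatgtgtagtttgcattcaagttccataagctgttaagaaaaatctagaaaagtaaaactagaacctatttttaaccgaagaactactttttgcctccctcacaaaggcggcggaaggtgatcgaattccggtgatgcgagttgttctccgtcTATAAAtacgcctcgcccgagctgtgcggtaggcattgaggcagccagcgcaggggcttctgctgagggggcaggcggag
The first window had 73.7% G or C and the second 46%, against a median of 58.7% over the windows of all genes. The first held 5 GC boxes, and 45% of the 35116 windows hold at least 1. The second held a TATA box that begins 30 bases before the start, a motif found in 11.5% of windows. Neither held the CCAAT box (34.6% of windows) or the response element core (7.98%). These matches describe letters only.

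TSPAN8, the targeted tetraspanin gene, had log2 values of 6.25 and 6.35 on the knockdown arrays, against 7.52 and 7.62 on the control arrays. Its difference of -1.27 ± 0.062 (SE) passed the test across all probe sets (limma, Benjamini-Hochberg adjusted p = 0.0026), and 41.5% of the control signal was left. It was the single probe set to pass, which is 0.00183% of those tested. The other facts of the arrays are brief. Array medians lay between 6.58 and 6.61, and 13 of 14 measured noradrenergic neuroblast markers lay above the median of all probe sets. PHOX2A, a transcription factor that sets this identity, was at 10.96 and 11.12 in knockdown and 11.14 and 11.11 in control cells. TH, the enzyme of the first step of catecholamine synthesis, was the exception, at 6.03 and 6.12 in knockdown and 6.0 and 5.92 in control cells. Both were named after their values were seen.

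Every MALAT1 probe set was higher on average in knockdown cells than in control cells. The 12 differences had a median of 0.39 on the log2 scale, a 1.31-fold signal, and ran from 0.085 to 0.66. For comparison, 50% of all probe sets had a knockdown mean above the control mean, and the central 90% of all differences lay between -0.13 and 0.13. For 11 of the 12 both knockdown arrays lay above both control arrays, which was so for 17.7% of all probe sets. The difference was at least 0.3 for 8 of the 12, against 0.28% of all probe sets. Because the genes were chosen with this contrast known, nothing is read from these counts.

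**Figure D1:**
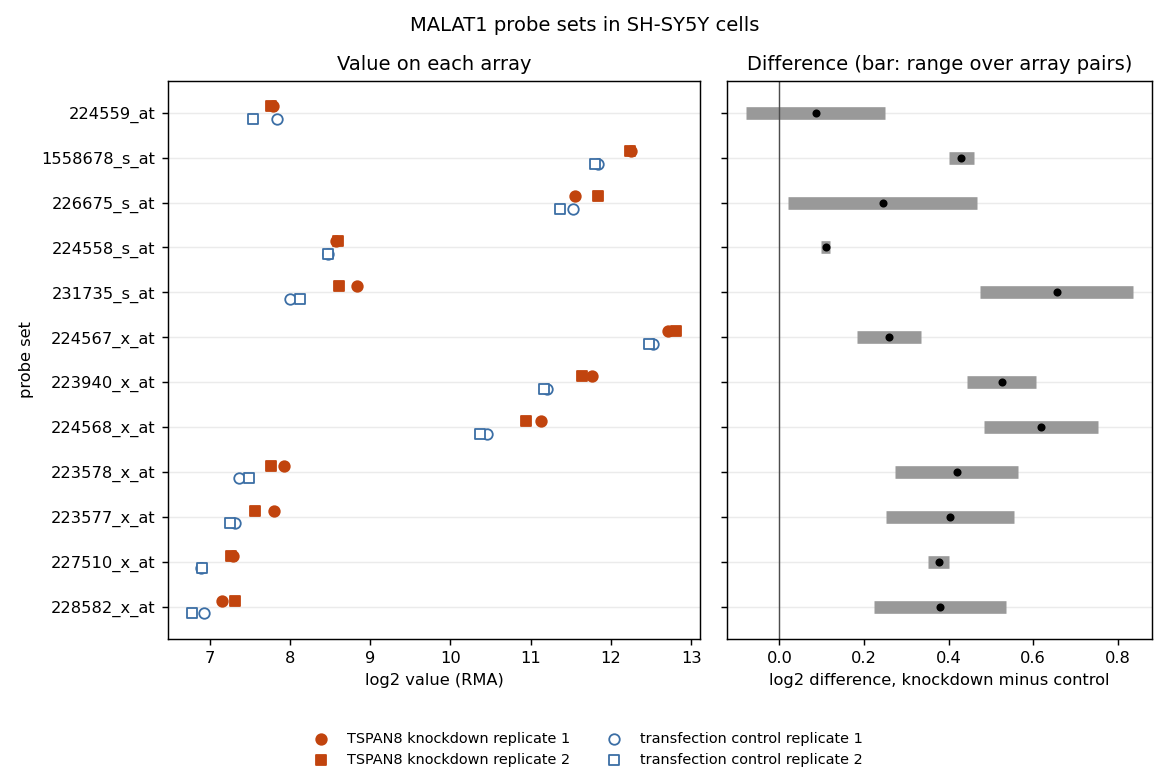
MALAT1 probe sets, 1 per row, ordered by suffix and then by signal. Left, the log2 value on each of the 4 arrays (filled, TSPAN8 knockdown; open, transfection control; circle, replicate 1; square, replicate 2); right, the mean difference as a point with the range over the 4 array pairs as a bar. Bars stay above 0 in 11 of 12 rows, the exception being 224559_at.

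The platform's suffixes say how specific a probe set is: _at probes match 1 transcript, _s_at probes are shared by several transcripts, often of 1 gene, and some probes of an _x_at set may also bind unrelated sequences. MALAT1 is covered by 1 _at, 4 _s_at and 7 _x_at probe sets. The _at set, 224559_at, had log2 values of 7.79 and 7.77 in knockdown cells, against 7.85 and 7.54 in control cells. Its groups overlapped, since control replicate 1 was the highest of the 4 arrays, and its difference of 0.085 was the smallest of the 12. The only MALAT1 probe set of the specific class thus did not separate the groups.

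The 4 _s_at sets had a median difference of 0.34. In 4 of 4 the arrays did not overlap, with knockdown higher, against 15% of all _s_at sets in that direction. Set 231735_s_at read 8.84 and 8.61 in knockdown cells, against 8.0 and 8.13 in control cells. Its difference of 0.66 ranked 2 from the top of all probe sets tested. Set 1558678_s_at, one of the bright ones, read 12.26 and 12.24 in knockdown cells, against 11.84 and 11.80 in control cells. The knockdown arrays differed by 0.017 and the control arrays by 0.041, so the difference of 0.43 was many times the gap within either group. Set 226675_s_at read 11.55 and 11.83 in knockdown cells, against 11.53 and 11.37 in control cells. Here knockdown replicate 1 exceeded control replicate 1 by only 0.021, and the difference of 0.24 was smaller than the gap of 0.28 between the knockdown arrays. Set 224558_s_at read 8.58 and 8.60 in knockdown cells, against 8.48 and 8.48 in control cells. Its arrays agreed closely within each group, with a difference of 0.11.

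The 7 _x_at sets had a median difference of 0.40, with a lowest value of 0.26 and a highest of 0.62. In 7 of 7 the arrays did not overlap, with knockdown higher, against 17.9% of all _x_at sets in that direction. Set 224567_x_at, the brightest for MALAT1, read 12.71 and 12.81 in knockdown cells, against 12.53 and 12.48 in control cells. Set 223940_x_at read 11.77 and 11.65 in knockdown cells, against 11.20 and 11.16 in control cells. Set 224568_x_at read 11.13 and 10.94 in knockdown cells, against 10.46 and 10.37 in control cells. These 3 sets differed by 0.26, 0.53 and 0.62, and the last 2 ranked 6 and 4 from the top of all differences. The other 4 were dim: 223578_x_at read 7.93 and 7.76 in knockdown cells, against 7.36 and 7.49 in control cells, a difference of 0.42. Set 223577_x_at read 7.80 and 7.57 in knockdown cells, against 7.32 and 7.25 in control cells. Both had knockdown replicate 1 as the highest array. Set 227510_x_at read 7.29 and 7.26 in knockdown cells, against 6.89 and 6.91 in control cells, and 228582_x_at read 7.15 and 7.32 in knockdown cells, against 6.93 and 6.79 in control cells.

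The MALAT1 differences were found in bright and dim probe sets. The 5 sets with a mean log2 value of 10 or more had a median difference of 0.43 and the 7 dimmer ones 0.38, while all 4329 probe sets of at least that signal had a median of -0.015. With knockdown higher, the difference exceeded the gap between arrays of both groups in 10 of 12 sets, against 11.8% of all probe sets in that direction. The exceptions were 224559_at and 226675_s_at. Relative to the mean of the control arrays, the median MALAT1 set stood at 0.42 and 0.37 on the 2 knockdown arrays, and at 0.023 and -0.023 on those of the controls. In single sets replicate 1 minus replicate 2 ran from -0.28 to 0.23 in knockdown cells and from -0.13 to 0.30 in control cells. Knockdown minus control was 0.41 within replicate number 1, above 0 for 11 of 12 sets, and 0.40 within number 2, above 0 for 12 of 12. With any 1 array left out, the median ran from 0.37 to 0.42. The 11 sets free of overlap kept their sign, which follows from the lack of overlap and adds nothing to it. After median centring 11 sets were free of overlap with knockdown higher, against 13.1% of all probe sets. After a second quantile normalization 10 sets were, against 18.2%. Under both, 12 of 12 stayed above control. Both scalings start from the deposited RMA values, so the part of the first normalization was not tested.

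The MALAT1 value depended on the class of probe set. Without the _x_at sets its median difference was 0.24, and with only the _at set it was 0.085. The probe sets are not replicates of one another, since they read the same RNA on the same arrays and may share probes. Their sequences and places along the transcript were not used here, and the antisense TALAM1 was not measured separately.

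Most NEAT1 probe sets did not separate the groups. Of 9 sets, 7 were above and 2 below control on average, with a median difference of 0.042 and a range from -0.036 to 0.32. In 3 of 9 both knockdown arrays lay above both control arrays, against 17.7% of all probe sets, and in 0 of 9 both lay below, against 19.8%. The platform annotates all 9 jointly to MIR612 and NEAT1. MIR612, a microRNA gene, lies within NEAT1, and the values cannot separate the pair. Which NEAT1 isoform each set reads was not worked out, so the median may pool sets of different isoforms.

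**Figure D2:**
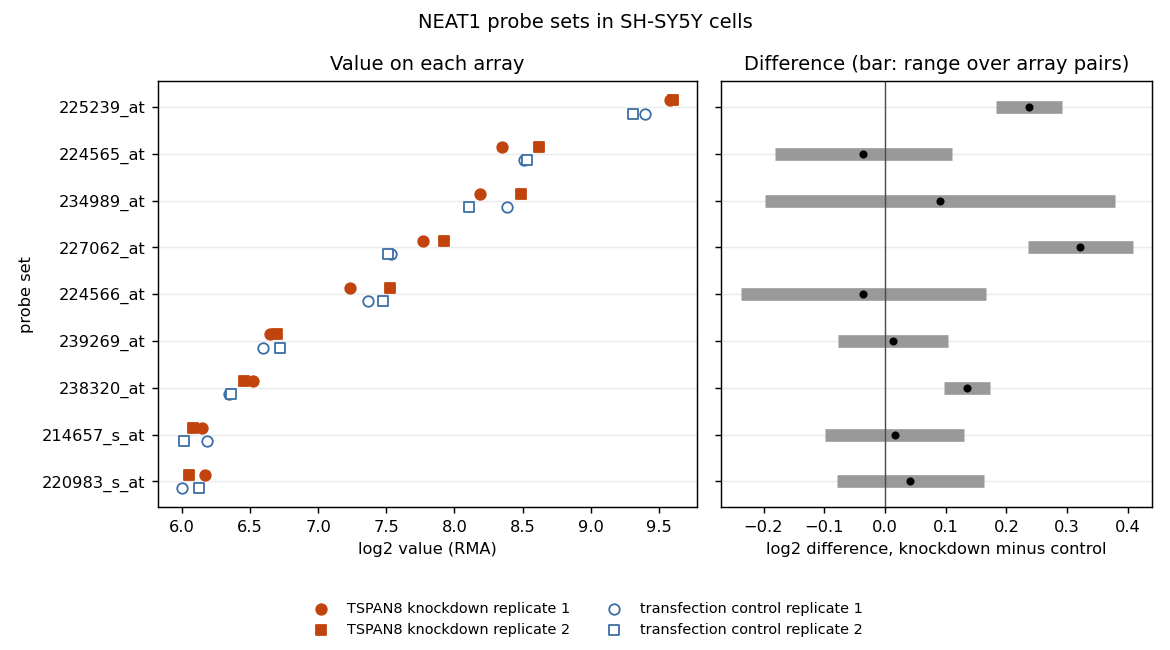
NEAT1 probe sets, 1 per row, drawn as for MALAT1: log2 value on each array at the left, mean difference with the range over the 4 array pairs at the right. Bars clear 0 for 225239_at, 227062_at and 238320_at; the other 6 cross it.

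The 7 _at sets of NEAT1, the specific class, had a median difference of 0.091, and 3 of 7 were free of overlap with knockdown higher, against 18.5% of all _at sets. The brightest, 225239_at, read 9.58 and 9.60 in knockdown cells, against 9.40 and 9.31 in control cells, a difference of 0.24. Set 227062_at read 7.77 and 7.92 in knockdown cells, against 7.53 and 7.51 in control cells, the largest NEAT1 difference at 0.32. Set 238320_at read 6.52 and 6.45 in knockdown cells, against 6.35 and 6.36 in control cells, close to the array medians. In these 3 sets the difference exceeded the gap within both groups. Being free of overlap, they stay above control by construction with any 1 array left out.

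The other _at sets overlapped. Set 224565_at read 8.35 and 8.62 in knockdown cells, against 8.51 and 8.53 in control cells. Set 224566_at read 7.24 and 7.53 in knockdown cells, against 7.36 and 7.47 in control cells. In both the control arrays lay between the knockdown arrays, and the differences were -0.036 and -0.036. Set 234989_at read 8.19 and 8.49 in knockdown cells, against 8.38 and 8.11 in control cells, and the dim 239269_at read 6.64 and 6.70 in knockdown cells, against 6.59 and 6.72 in control cells. Knockdown replicate 1 was below replicate 2 in 6 of the 6 sets whose signal exceeded the median of all probe sets, by up to 0.30. The median NEAT1 difference was 0.053 within replicate number 1 and 0.089 within number 2. Without knockdown replicate 1 it was 0.10, without control replicate 1 also 0.10, and without control replicate 2 0.078.

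The 2 _s_at sets lay below the median of all probe sets and overlapped between groups. Set 214657_s_at read 6.14 and 6.08 in knockdown cells, against 6.18 and 6.01 in control cells. Set 220983_s_at read 6.17 and 6.05 in knockdown cells, against 6.0 and 6.13 in control cells. The platform gives 220983_s_at a RefSeq accession that belongs to SPRY4, an inhibitor of growth factor signalling, so its symbol and its accession disagree. The other SPRY4 set, 221489_s_at, read 8.27 and 8.26 in knockdown cells, against 8.32 and 8.17 in control cells. Without 220983_s_at the NEAT1 median was 0.053, with 6 of 8 sets above control. Under median centring and under a second quantile normalization 6 of 9 sets were above control. The same 3 were free of overlap, against 13.1% and 18.2% of all probe sets with knockdown higher.

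**Figure D3:**
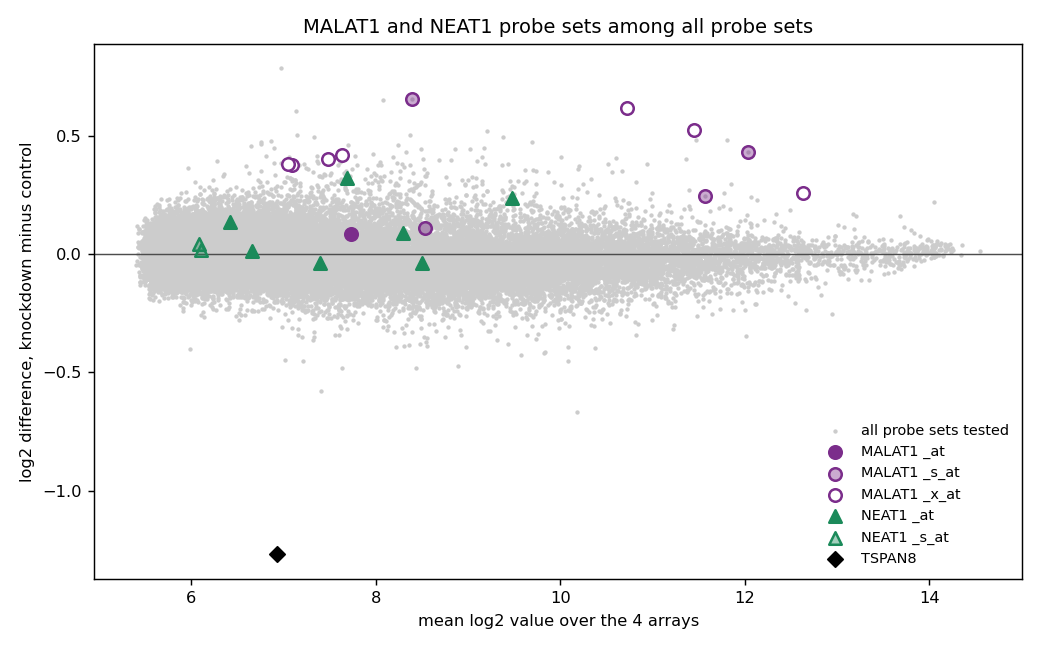
Mean log2 value (horizontal) and log2 difference, knockdown minus control (vertical), for all 54613 probe sets in grey, with MALAT1 (circles), NEAT1 (triangles) and TSPAN8 (diamond) marked by suffix. MALAT1 sets stand on the upper edge at low and high signal alike, except 224559_at and 224558_s_at, while NEAT1 sets run from -0.036 to 0.32.

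Genes that share a compartment, a processing step or a chromosomal region with MALAT1 and NEAT1 were set beside them, each by its brightest single-gene probe set. None of the 136 measured genes of the 6 lists passed the test (limma, smallest adjusted p = 0.60), as against 0.00506% of all genes. Over all genes the median difference was -0.0094 and 44.4% were above control. At an unadjusted p under 0.05, 2.39% of all genes were higher and 5.57% lower. Where a list's median changed sign with 1 array left out or another scaling, the value is given with the list.

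Most genes of paraspeckle proteins were below control on average. Of 29 measured of 30, 8 were above and 21 below control, with a median of -0.034, and at an unadjusted p under 0.05 0 were higher and 2 lower (limma). TAF15, an RNA-binding protein, was at -0.21 ± 0.058 (SE), with 9.83 and 9.91 in knockdown and 10.04 and 10.12 in control cells, but its other 3 probe sets were above control. SMARCA4, a chromatin remodelling ATPase, was at -0.14 and 8 of its 9 probe sets were below control. ARID1B, a subunit of the same remodelling complexes, was at -0.11, with 2 of its 7 probe sets above control. The RNA-binding protein HNRNPH3 was at -0.096, with 4 of 4 probe sets below control.

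Nuclear speckle and SR proteins, which hold and splice pre-mRNA where MALAT1 collects, had 21 of 33 measured members (of 36) above control and a median of 0.026. That median was -0.00060 over _at sets alone, -0.0044 without knockdown replicate 1 and -0.00022 without control replicate 1. At an unadjusted p under 0.05, 2 were higher and 4 lower (limma). PRPF6, a bridging protein of the spliceosome, was at 0.30 ± 0.087 (SE), with 9.41 and 9.19 in knockdown and 8.92 and 9.10 in control cells, while its other probe set was at -0.13. PRPF8, the central scaffold of the spliceosome, was at -0.18, the splicing factor SRSF6 at -0.17 and RNPS1, a factor of the exon junction complex, at -0.13. The 2 probe sets of SRSF6 and of RNPS1 were all below control.

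Genes for the processing, decay and modification of MALAT1 and NEAT1 had 8 of 23 measured members (of 26) above control and a median of -0.019, with 0 higher and 1 lower at an unadjusted p under 0.05 (limma). The median turned to 0.0069 after a second quantile normalization and to 0.014 without knockdown replicate 2. The lower gene was ELAC2, the RNase Z that trims tRNA 3' ends and the tRNA-like product of MALAT1, at -0.18 ± 0.060 (SE), with 8.89 and 8.83 in knockdown and 9.10 and 8.98 in control cells. YTHDC1, a nuclear reader of N6-methyladenosine, was at -0.12, with 2 of its 5 probe sets above control. METTL3, which writes that mark, was at -0.11, with its other 2 probe sets above control. POP1, a protein subunit of RNase P, was at -0.11.

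Other long non-coding RNAs had 15 of 23 measured members (of 39) above control and a median of 0.020, with 0 at an unadjusted p under 0.05 in either direction (limma). The median was -0.022 without control replicate 1 and -0.0013 without knockdown replicate 2. TUG1 was at -0.13, with 10.81 and 10.93 in knockdown and 11.03 and 10.98 in control cells, and 5 of its 6 probe sets were below control. OIP5-AS1, known as cyrano, was at -0.19, with 10.50 and 10.78 in knockdown and 10.79 and 10.88 in control cells. MIR17HG, the host of a microRNA cluster, was at 0.10 and the dimmest of those named, and LINC01116 was at 0.22 with overlapping arrays. These 23 genes ran up to 0.22, each by its brightest probe set. By their own brightest sets MALAT1 was at 0.26 and NEAT1, read jointly with MIR612, at 0.24.

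Chromosomal neighbours of MALAT1 and NEAT1 had 5 of 15 measured members (of 16) above control, with a median of -0.017. At an unadjusted p under 0.05, 0 were higher and 3 lower (limma): RELA, an NF-kappaB subunit, at -0.21, SIPA1, a GTPase activator of Rap proteins, at -0.14, and EHBP1L1 at -0.13, whose other 3 probe sets were above control. FAM89B was at -0.10. The nearest measured genes on the NEAT1 side, SLC25A45 and FRMD8, were at -0.045 and 0.046, and LTBP3 beyond MALAT1 was at -0.0010. The last 3 genes lie outside the rule for named genes and were named for their place.

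Transcription regulators reported to act on MALAT1 or NEAT1 had 5 of 13 measured members (of 16) above control and a median of -0.044, with 0 higher and 2 lower at an unadjusted p under 0.05 (limma). Without control replicate 1 the median was 0.0013. The hypoxia factor EPAS1 and the chromatin remodeller CHD7 were both at -0.15, MYC was at -0.16 and the repair protein BRCA1 at -0.097. The other probe sets of EPAS1 and BRCA1 were above control, as were 2 of the 4 probe sets of CHD7.

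**Figure D4:**
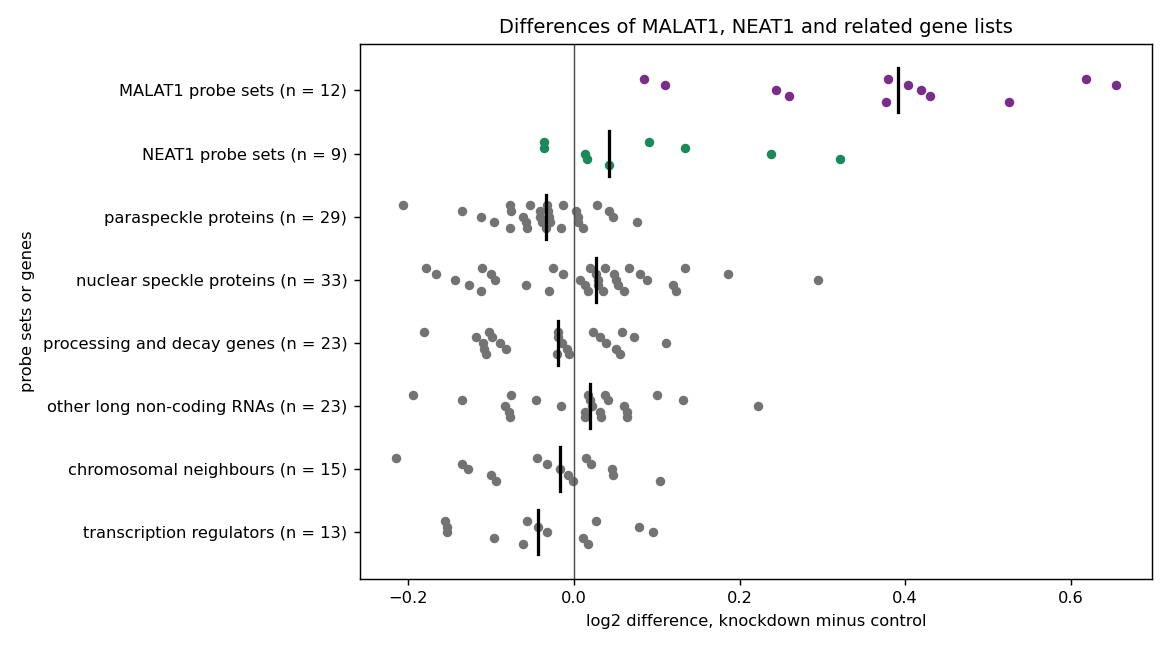
Log2 difference, knockdown minus control, for each MALAT1 and NEAT1 probe set and for each measured gene of 6 related lists, 1 point each, with a line at the median (vertical spread within a row has no meaning). The MALAT1 median is 0.39 and the NEAT1 median 0.042, each over probe sets. The list medians, with each gene read by its brightest set, lie between -0.044 and 0.026. By the brightest set MALAT1 is at 0.26 and NEAT1 at 0.24.

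The pattern of MALAT1 over the 4 arrays was compared with every other single-gene probe set by the root mean square difference of values centred on their own mean. The averaged MALAT1 sets stood at 0.21 and 0.17 on the knockdown arrays and at -0.16 and -0.21 on the control arrays. The closest were 1 probe set each of RASSF8 (0.015), MSRB3 (0.021), which repairs oxidised methionine, and TPR (0.024), a protein of the nuclear pore basket, and 16 of 41079 probe sets lay within 0.05. The other probe sets of these genes differed by -0.0028 to 0.075 for RASSF8, 0.090 to 0.25 for MSRB3 and -0.096 to 0.34 for TPR. Because MALAT1 was chosen with its knockdown minus control values known, nothing is read from the count of 16. For NEAT1 the closest were CSAD (0.0031), ZNF295-AS1 (0.0036) and B3GALT5-AS1 (0.0036). The average over its 9 sets, which differ from each other, was so flat that 7240 probe sets lay within 0.05 of it. Without 220983_s_at the closest were MOG, USH1C and DNAJC22.

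Markers of several cell types and of RNA quality were read on the same arrays. Of 16 mesenchymal and fibroblast markers, 14 had a signal above the median of all probe sets, and 12 were above control. Relative to the control mean, the list's median stood at 0.23 and 0.047 on knockdown arrays 1 and 2. On control arrays 1 and 2 it stood at 0.017 and -0.017. At an unadjusted p under 0.05, 2 were higher and 0 lower (limma): the collagen gene COL3A1, by 0.64 within replicate number 1 and 0.25 within number 2, and the matrix protein gene SPARC, by 0.37 and 0.16, both named after their values were seen. On the same knockdown arrays 1 and 2 the MALAT1 sets stood at medians of 0.42 and 0.37 over all sets, 0.50 and 0.36 over _x_at sets, and 0.27 and 0.40 over _s_at sets. Schwann cell and glial markers (5 measured) had a median difference of 0.0049 and endothelial and blood cell markers (5 measured) of -0.015. Noradrenergic markers were at -0.099 and -0.067 on the knockdown arrays, with 12 of 14 below control. At an unadjusted p under 0.05, 0 of these 14 were higher and 4 lower (limma), against 2.39% and 5.57% of all genes. The 4 were CHGA at -0.29, DBH at -0.35, L1CAM at -0.20 and CHGB at -0.20, named after their values were seen. DBH and L1CAM each had another probe set, which was above control. The 3' minus 5' signal of ACTB was 2.00 and 2.18 in knockdown and 2.14 and 1.98 in control cells, and that of GAPDH 0.56 and 0.67 in knockdown and 0.60 and 0.53 in control cells. The part of the mesenchymal and noradrenergic shifts in the MALAT1 result was not tested.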

How the data were processed

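Total RNA of 2 knockdown and 2 control samples was measured on 3' oligonucleotide arrays, 1 per sample. The authors deposited log2 values, 1 per probe set and array, with RMA and R 3.0.1 as the tools given by the submitters' processing notes, settings unstated. Values ran from 5.30 to 14.6. Of 54675 probe sets, 62 AFFX controls were left out. Detection calls were not used here, so signal near background could not be marked, and log2 values compress changes there. The number of arrays limits the precision.

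Symbols came from the platform annotation: 41091 probe sets had 1 gene, 1801 several and 11721 were not listed. NEAT1 sets, which the platform lists with MIR612, were kept as members. The test of knockdown against control was limma 3.58.1 (lmFit, eBayes, R 4.3.3), with Benjamini-Hochberg adjustment over 54613 probe sets and a threshold of 0.05. MALAT1 and NEAT1 were summarised by the median over their probe sets, with no test. Named genes were the members, TSPAN8, the 4 genes with the smallest p of each list, and the 3 genes most like each member. The members and lists were chosen with earlier results of these data known. Start regions came from RefSeq (GRCh38.p14). Alternatives were 2 scalings, a filter on dim sets, other variance models, weighted arrays, a block for the replicate number, probe set classes, summaries per gene and leaving out each array. Figures used Python 3.11.15 and matplotlib 3.10.9.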

Additional observations from a re-analysis of the deposited data

How the results depend on the processing

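The MALAT1 median difference of 0.39 stayed above 0 under every alternative run, but its size followed the probe sets kept: 0.085 for the _at set alone, 0.24 without _x_at sets, 0.26 for the brightest set and 0.43 for sets with a mean of 8 or more, a minimum chosen after seeing the data. Leaving out each array gave 0.37 to 0.42. NEAT1, at 0.042, was 0.091 over _at sets and 0.24 for the brightest set, and ran from 0.046 to 0.10 with an array left out. TSPAN8 kept its direction (-1.32 to -1.22 with an array left out) and lost its call with the replicate number as a block, at -1.27 with an adjusted p of 0.16 (limma), where 0 probe sets passed, and 3644 were under 0.05 unadjusted, against 4278 without the block. Differences and medians are the same with the block by construction, but standard errors and p-values are not: unadjusted counts became 0 higher and 1 lower for paraspeckle proteins, 1 and 2 for speckle proteins, 1 and 1 for other long non-coding RNAs, 0 and 2 for neighbours, 0 and 0 for regulators, and 6 and 0 for mesenchymal markers (limma). The shares of all genes in each direction under the block are not given, so these counts have no background to be read against. Deviations of equal numbers correlated at 0.051 and no label pairs them. The count of probe sets past the threshold ran from 1 to 1026 with an array left out, at 25 without knockdown replicate 1 and 1026 without knockdown replicate 2, in fits that lend the lone array the spread of the other pair.

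The paraspeckle median of -0.034 was -0.016 after a second quantile normalization, -0.048 after median centring and -0.016 with means over probe sets, and ran from -0.042 to -0.031 with an array left out. The regulator median of -0.044 was -0.020, -0.058 and -0.024 in the same order and -0.032 over _at sets, and ran from -0.053 to 0.0013. The speckle median was -0.00060 over _at sets and ran from -0.0044 to 0.038. The processing list ran from -0.053 to 0.014, other long non-coding RNAs from -0.022 to 0.032 and neighbours from -0.032 to -0.012. For all of these the cause was not tested. Trended variance was run for the tested results only, and NEAT1 has no _x_at set to remove. Without detection calls, how far dim sets stand above background is unknown.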
